A study of Mus musculus with 10 samples.

Results

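The insulin-like growth factor (IGF) axis was followed through the chemical conversion of mouse fibroblasts into cells resembling extraembryonic endoderm (XEN). It was represented by 10 genes chosen by name: the ligands *Igf1* and *Igf2*, the receptor *Igf1r*, and the binding proteins *Igfbp1* to *Igfbp7*. All 10 were found among the 23197 genes of the count table. Levels are given over the 670 of 808 deposited cells in which at least 4000 genes were detected. A level is a cell's count of UMIs, the molecular tags that tell captured RNA copies apart, scaled to 1000000 UMIs per cell without spike-in RNAs (CPM). A group's level is the mean CPM over its cells unless a median is named. A gene was called higher or lower between groups when the mean CPM + 1 differed by at least 2-fold and the mean reached 10 CPM in either group.

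Mouse embryonic fibroblasts, taken from ICR embryos per the study's methods, were switched to reprogramming medium with the C6FAE cocktail, which comprises CHIR99021, Forskolin, AM580, EPZ004777 and the TGF-beta receptor inhibitor written as 6. The methods section also lists valproic acid in the medium, while the label of every sample reads C6FAE. The day 0 cells are the untreated start, and cells of every later group had received the medium. Cells were picked by hand on days 0, 1, 2, 3, 4, 5, 6, 8, 12 and 20, and further cells on days 8 and 12 were picked out of colonies. These groups are named d0, d1, d2, d3, d4, d5, d6p, d8, d8c, d12, d12c and d20, and the meaning of the letter p was not stated. Later cells without the cocktail were not analysed here, so treatment and time in culture cannot be told apart.

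Cell names do not show which of the 10 sequenced batches a cell came from. Each group is therefore 1 sample, no test between groups was possible, and the spread over cells is a description. Intervals (exact, 95%) cover counting error only. In these pooled descriptions, fewer cells of a type and less RNA per cell cannot be told apart.

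IGF1 and IGF2 are secreted peptides that bind the tyrosine kinase receptor IGF1R and drive growth through IRS adaptors, PI3K and AKT. *Igf2* is imprinted and is the main IGF of the embryo, made in mesoderm and in extraembryonic membranes. The binding proteins hold IGFs outside the cell, prolong their life and mostly limit their access to the receptor. Among them *Igfbp1* is a secreted product of liver and decidua that insulin represses through forkhead factors, whereas *Igfbp3* to *Igfbp7* are widely made by mesenchymal cells.

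On the mm9 build, 2 pairs of binding protein genes lie end to end. *Igfbp1* (chr11:7097785-7102549, plus strand) and *Igfbp3* (chr11:7106089-7113926, minus strand) are 3.54 kb apart with facing 3′ ends. *Igfbp2* (chr1:72871077-72899048, plus strand) and *Igfbp5* (chr1:72904506-72921458, minus strand) are 5.46 kb apart in the same arrangement. The other members are *Igf1* at chr10:87321010-87399792 (plus strand), *Igf2* at chr7:149836673-149852721 (minus strand) and *Igf1r* at chr7:75097713-75371484 (plus strand). *Igfbp4* is at chr11:98902558-98913969 (plus strand), *Igfbp6* at chr15:101974793-101979942 (plus strand) and *Igfbp7* at chr5:77778265-77837070 (minus strand). The annotated antisense gene *Igf2as* overlaps *Igf2*, and because the strand of the counted reads is not stated, reads of the pair cannot be told apart.

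RefSeq promoter sequences, on build GRCm38.p6, were found for all 10 members as 14 windows of 250 bases before an annotated start. The windows of the *Igfbp1* and *Igfbp3* neighbours and of *Igfbp4* are printed because these genes had opposite courses below. The capitals in the *Igfbp1* window mark CAAAACA, the core of the insulin response element bound by forkhead factors, 108 bases before the start, and those in the *Igfbp4* window mark the TATA box letters TATAAA 28 bases before it. No searched motif is in the *Igfbp3* window.
Igfbp1, chr11:7197537-7197786, plus strand: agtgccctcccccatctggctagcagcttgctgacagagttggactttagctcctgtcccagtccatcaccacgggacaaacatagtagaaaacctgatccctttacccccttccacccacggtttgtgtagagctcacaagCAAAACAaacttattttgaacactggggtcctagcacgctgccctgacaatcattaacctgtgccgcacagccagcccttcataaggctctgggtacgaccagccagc
Igfbp3, chr11:7213924-7214173, minus strand: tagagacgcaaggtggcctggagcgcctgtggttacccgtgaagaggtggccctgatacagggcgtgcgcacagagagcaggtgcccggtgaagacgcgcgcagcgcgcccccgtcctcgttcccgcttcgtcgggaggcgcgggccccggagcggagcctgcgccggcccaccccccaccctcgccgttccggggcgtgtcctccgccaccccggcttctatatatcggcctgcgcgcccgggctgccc
Igfbp4, chr11:99040994-99041243, plus strand: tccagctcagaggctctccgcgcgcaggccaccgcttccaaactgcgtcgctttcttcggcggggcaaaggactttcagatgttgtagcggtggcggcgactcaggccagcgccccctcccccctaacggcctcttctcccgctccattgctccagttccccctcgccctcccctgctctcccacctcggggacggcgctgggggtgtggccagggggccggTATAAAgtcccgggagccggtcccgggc
The *Igfbp1* window holds 5 CpG dinucleotides at 53.2% GC, near the median over all 32851 windows of 6 at 52.4% GC. The *Igfbp3* window holds 32 at 73.2% GC and the *Igfbp4* window 22 at 69.2% GC, so these 2 start in CpG-rich sequence. The other mesenchymal members differ, with 26 at 74% GC for *Igfbp7*, 10 at 58.8% for *Igfbp5* and 7 at 49.6% for *Igfbp6*. Searched on both strands, CAAAACA occurs in 5.56% of all windows and among the members only at *Igfbp1*, and TATAAA occurs in 12.4% of all windows and among the members at *Igfbp4* and *Igfbp6*. The cAMP response element TGACGTCA (1.55% of all windows), the TCF/LEF motif CTTTGAT (3.21%), the GATA motif AGATAA (9.99%) and the forkhead motif TGTTTAC (3.17%) are in no member window. A match of letters is a description and not a binding site.

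The kept groups held 20 to 86 cells, with 17633 to 6004864 UMIs per cell. The median depth was 195480 UMIs at d20 and 344196 at d0, with 1055206 at d2 the deepest, and spike-ins took a median 3.28% of a cell's counts at d0 and 19.3% at d20. The labels were checked against markers. The summed level of 10 fibroblast markers averaged 3919 CPM at d0 (cells from 96.5 to 14268), 12807 at d12 (668 to 56983) and 95.7 at d20 (0 to 920), where *Postn* and *Dcn* were at 0. The sum of 12 XEN markers averaged 146 CPM at d0, with *Sall4*, *Foxa2* and *Amn* at 0, 327 at d12 and 3867 at d20 (312 to 8209), where all 12 had a UMI. The kept d12c cells fell into 2 ranges of running number. The 21 cells numbered up to 24 had 836 CPM of XEN markers, and the 30 cells numbered 49 to 96 had 3673 CPM. These are given apart as early- and late-numbered d12c cells. Only 51 of the 96 deposited d12c cells passed the filter, and none that passed had a number between the 2 ranges. The filter also removed many d20 cells, leaving 38 from 72, whereas the d0 group retained 72 from 84. Endothelial markers averaged at most 36.7 CPM in any of the 12 groups, at d12, macrophage markers at most 21.7 and neural markers at most 131. Only 3 cells reached 500 CPM of skeletal muscle markers, at d0, d2 and d12c.

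*Igf1*, the ligand best known as the mediator of growth hormone, was low in the starting fibroblasts, high at d6p, d8 and d12 and all but gone in XEN-like cells. Its mean level was 49.5 CPM at d0, 20.9 at d1, 10.3 at d2, 24.6 at d3, 45.4 at d4 and 92.3 at d5. It then stood at 403 CPM at d6p, 643 at d8, 181 at d8c and 438 at d12, and at 69.6 at d12c and 2.26 at d20. The mean ran over a 285-fold range, from d20 to d8. The d5 and d6p groups, which hold different cells, had medians of 2.38 and 165 CPM. Cells with a UMI were 21 of 36 at d5 and 86 of 86 at d6p.

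Cells of one group differed widely in *Igf1*. At d8 the lowest cell had 10.4 CPM, the median was 267 and the highest had 4749. At d0 the lowest cell had 0, the median was 3.87 and the highest had 536. The interquartile ranges of these groups met without overlap, since the upper quartile at d0 was 51.2 CPM and the lower at d8 was 51.8. At d20, 5 of 38 cells (13.2%, interval 4.41 to 28.1) had any *Igf1* UMI, for 29 UMIs in all, against 65 of 67 cells at d12. With every cell thinned to 50000 UMIs, which leaves out shallower cells, the share was 8.33% at d20 against 88.1% at d8 and 42.3% at d0.

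*Igf2* was the member found most evenly. It had a UMI in every cell of the first 11 groups, and in 33 of 38 cells at d20 (86.8%, interval 71.9 to 95.6). Its mean was 588 CPM at d0, 392 at d1, 431 at d2, 815 at d3, 695 at d4, 1219 at d5, 968 at d6p and 765 at d8. Among later groups it was 1274 at d8c, 885 at d12, 1124 at d12c and 243 at d20. The range over groups was 5.25-fold, the smallest of the 9 members with a UMI in every group. The d20 cells ran from 0 to 743 CPM with a median of 171, and the d12 cells from 10.3 to 5046 with a median of 351, so most d20 cells lay within the span of d12. The late-numbered d12c cells, which already had high XEN markers, averaged 832 CPM, and the early-numbered cells 1540.

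*Igf1r*, which encodes the signalling receptor for both ligands, had low levels at d3 and again in the colony and XEN-like cells. Its mean was 72.8 CPM at d0, 42.1 at d1, 36.1 at d2, 11.4 at d3, 41.9 at d4, 39.9 at d5, 85.9 at d6p and 50.8 at d8. It was 16.9 CPM at d8c, 75.7 at d12, 20.8 at d12c and 11.7 at d20, so that d20 and d3 were the lowest groups. A UMI was found in 67 of 72 cells at d0 and 12 of 38 at d20 (31.6%, interval 17.5 to 48.7). The median was 49.5 CPM at d0, 41.6 at d12 and 0 at d20.

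*Igfbp1* was the only member without a UMI in the starting fibroblasts and the only one called higher than d12 both at d20 and in late-numbered d12c cells. It had no UMI in any cell of d0, d2, d3, d4, d5, d6p, d8 and d8c, and 20 UMIs in 1 cell at d1, which makes 1 of 514 cells before day 12 (0.195%). Taking 3 cells as the limit that a count of 0 allows, up to 4.17% of cells could hold a UMI at d0 and 4.84% at d8. This limits cells with a UMI at these depths, not cells expressing the gene. At d12 a single cell held all 37 UMIs of its group. It was absent from all 21 early-numbered d12c cells and present in 15 of 30 late-numbered cells (50%, interval 31.3 to 68.7) and 19 of 38 cells at d20 (50%, interval 33.4 to 66.6). The mean level was 151 CPM in late-numbered d12c cells and 182 at d20, or 79.7 and 121 without the highest cell of each. Over summed UMIs, and setting the floor of 3 UMIs for a whole group in place of 0, *Igfbp1* at d20 was at least 2142-fold higher than at d0 and at least 2735-fold higher than at d8.

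Few cells carried most of this signal. At d20 there were 1407 *Igfbp1* UMIs (interval 1334 to 1482), of which 5 cells of at least 100 CPM held 95.1%. Those cells had 2414, 1716, 1247, 1056 and 185 CPM, while the other cells averaged 8.75 CPM and the median of the group was 0.925. In late-numbered d12c cells 4 cells, with 2217, 1184, 506 and 413 CPM, held 93.4% of 1042 UMIs, and the others averaged 7.99 CPM. So *Igfbp1* marked a small part of the XEN-like cells strongly and was found at a few UMIs in others: 10 of the 19 positive cells at d20 and 9 of the 15 late-numbered d12c cells had 1 to 3 UMIs. At d20 the 5 high cells had XEN markers at 2333 to 4663 CPM, around the group's median of 3823. In the 4 high late-numbered d12c cells they were 1426, 2324, 878 and 4891 CPM in the order above, with 3 under that group's median of 3485.

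All 9 of these high cells also had *Igfbp3*, the neighbouring gene. At d20 *Igfbp3* in them was 364, 927, 81.0, 304 and 74.2 CPM in the order above, against a group median of 0, and in the d12c cells 39.0, 179, 119 and 61.9 CPM. The same cells also had *Igfbp2*, which lies on another chromosome and was found in most cells of both groups. In the same order it was 173, 201, 554, 215 and 64.9 CPM at d20, against a median of 66.2. In the d12c cells it was 362, 537, 1458 and 764 CPM, against a median of 164. Any part of the shared locus was not tested. Of the 19 *Igfbp1*-positive and 13 *Igfbp3*-positive cells at d20, 10 had both, which is 52.6% and 76.9% of each. Of the 15 and 20 such late-numbered d12c cells, 10 had both, which is 66.7% and 50%. Spearman's rho over cells was 0.541 at d20 (38 cells) and 0.324 in late-numbered d12c cells (30 cells), where the cells share a group and a deeper cell has more chance of both genes. The single d12 cell with *Igfbp1* had the highest *Igfbp3* of its group, 3079 CPM, with fibroblast markers at 16502 and XEN markers at 70.8 CPM, and the d1 cell had 248 CPM of *Igfbp3*.

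**Figure D1:**
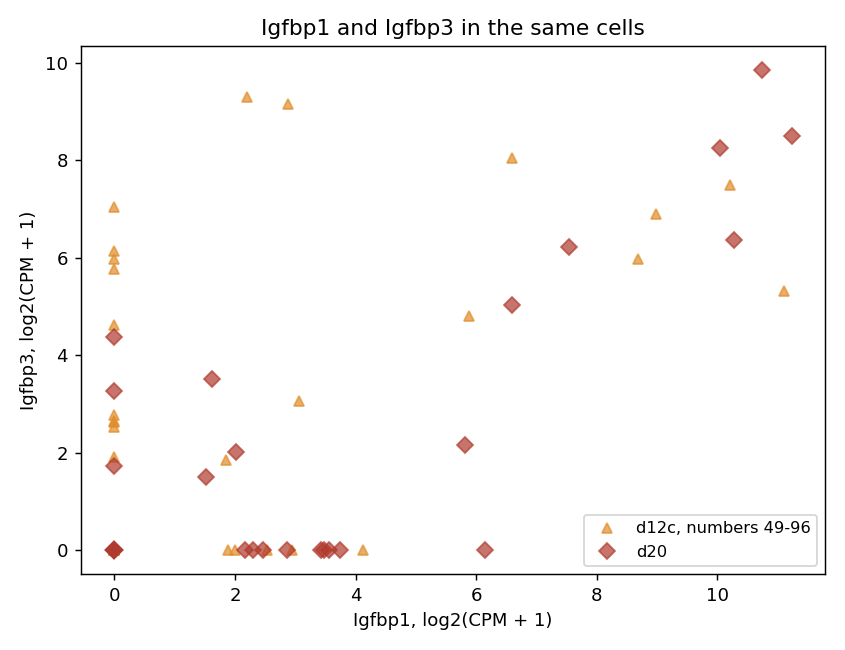
*Igfbp1* (x axis) and *Igfbp3* (y axis), each as log2(CPM + 1), in 38 d20 cells (diamonds) and 30 late-numbered d12c cells (triangles), 1 symbol per cell. The cells with at least 100 CPM of *Igfbp1*, at the right, all lie above 0 on the *Igfbp3* axis, and cells without *Igfbp1*, on the left edge, reach 19.9 CPM of *Igfbp3* at d20 and 131 CPM in late-numbered d12c cells.

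*Igfbp2*, a binding protein of fetal tissues that prefers IGF2, was, like *Igf2*, still found in most cells at d20. Its mean was 46.3 CPM at d0, 60.2 at d1, 61.3 at d2, 60.5 at d3, 142 at d4, 149 at d5, 38.5 at d6p and 319 at d8. It was 154 CPM at d8c, 388 at d12, 233 at d12c and 113 at d20. The d12 cells were spread widely, with a median of 59.4 CPM, an upper quartile of 422, a highest cell of 2767, and 28 of 67 cells at 100 CPM or more. At d20 the highest cell had 554 CPM and the median was 66.2, with a UMI in 35 of 38 cells. The d20 group thus lay lower than d12 by the mean and at a like level by the median. In late-numbered d12c cells the mean was 271 and the median 164 CPM.

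*Igfbp3*, the main carrier of IGFs in serum, had its highest mean at d5. Its mean was 98.1 CPM at d0, 122 at d1, 169 at d2, 552 at d3, 300 at d4, 1051 at d5, 672 at d6p and 528 at d8. It was 263 CPM at d8c, 392 at d12, 129 at d12c and 48.2 at d20. The median was 9.50 CPM at d0, 49.9 at d1, 101 at d2, 170 at d3, 123 at d4 and 698 at d5, so it dipped at d4 as the mean did. At d20 the mean rested on a few cells: it was 24.5 CPM without the highest cell, 13 of 38 cells had a UMI, and the median was 0.

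*Igfbp4*, an inhibitory binding protein that the protease PAPP-A cleaves, had the largest change on the first day among the 9 members compared. Its mean went from 75.0 CPM at d0 to 387 at d1 and then stood at 240 at d2, 284 at d3, 244 at d4, 531 at d5, 248 at d6p and 262 at d8. It was 149 CPM at d8c, 594 at d12, 197 at d12c and 14.4 at d20. The d0 cells ran from 0 to 634 CPM with a median of 20.6, and the d1 cells from 12.7 to 1754 with a median of 165. No d1 cell lacked it. In early-numbered d12c cells it averaged 440 CPM and in late-numbered cells 26.8, or 7.71 without the highest cell of 580 CPM.

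*Igfbp5*, a binding protein of muscle, bone and other mesenchyme that binds matrix, was highest in the days around d6p. Its mean was 67.8 CPM at d0, 225 at d1, 75.7 at d2, 99.5 at d3, 239 at d4, 335 at d5, 884 at d6p and 803 at d8. It was 375 CPM at d8c, 129 at d12, 133 at d12c and 2.86 at d20. At d6p and d8 every cell had a UMI, with medians of 333 and 377 CPM, against 7.37 at d0 and 18.9 at d12. At d3 the mean was 35.7 CPM without its highest cell. The mean of 107 CPM in late-numbered d12c cells came from 2 cells, with 1798 and 1129 CPM, and the median there was 3.09.

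*Igfbp6*, which binds IGF2 more tightly than IGF1, was the only member with its highest mean in the starting fibroblasts. Its mean was 153 CPM at d0, 139 at d1, 138 at d2, 34.0 at d3, 53.6 at d4 (34.2 without the highest cell), 81.2 at d5, 50.6 at d6p and 44.9 at d8. It was 33.0 CPM at d8c, 84.8 at d12, 17.9 at d12c and 0.275 at d20. All 21 early-numbered d12c cells had a UMI and none of the 30 late-numbered cells did. By the same limit of 3 cells, up to 10% of late-numbered cells could hold a UMI. Over summed UMIs the gene was at least 98.9-fold higher in the early- than in the late-numbered cells and at least 215-fold higher at d12 than in the late-numbered cells. At d20 it had 2 UMIs in 38 cells, and d0 over d20 was 676-fold (interval 187 to 5582).

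*Igfbp7*, a related protein of low IGF affinity found in vessel walls and fibroblasts, was highest at d12. Its mean was 79.5 CPM at d0, 47.9 at d1, 35.7 at d2, 53.3 at d3, 87.5 at d4, 96.5 at d5, 64.7 at d6p and 126 at d8. It was 72.4 CPM at d8c, 239 at d12, 101 at d12c and 1.79 at d20. A UMI was found in 66 of 67 cells at d12 and 4 of 38 at d20 (10.5%, interval 2.94 to 24.8). The mean of 93.6 CPM in late-numbered d12c cells came from 2 cells, with 1596 and 1150 CPM, while the median was 0. The same 2 cells had the most fibroblast markers of the 30, at 1150 and 2505 CPM, and 903 and 493 CPM of XEN markers.

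**Figure D2:**
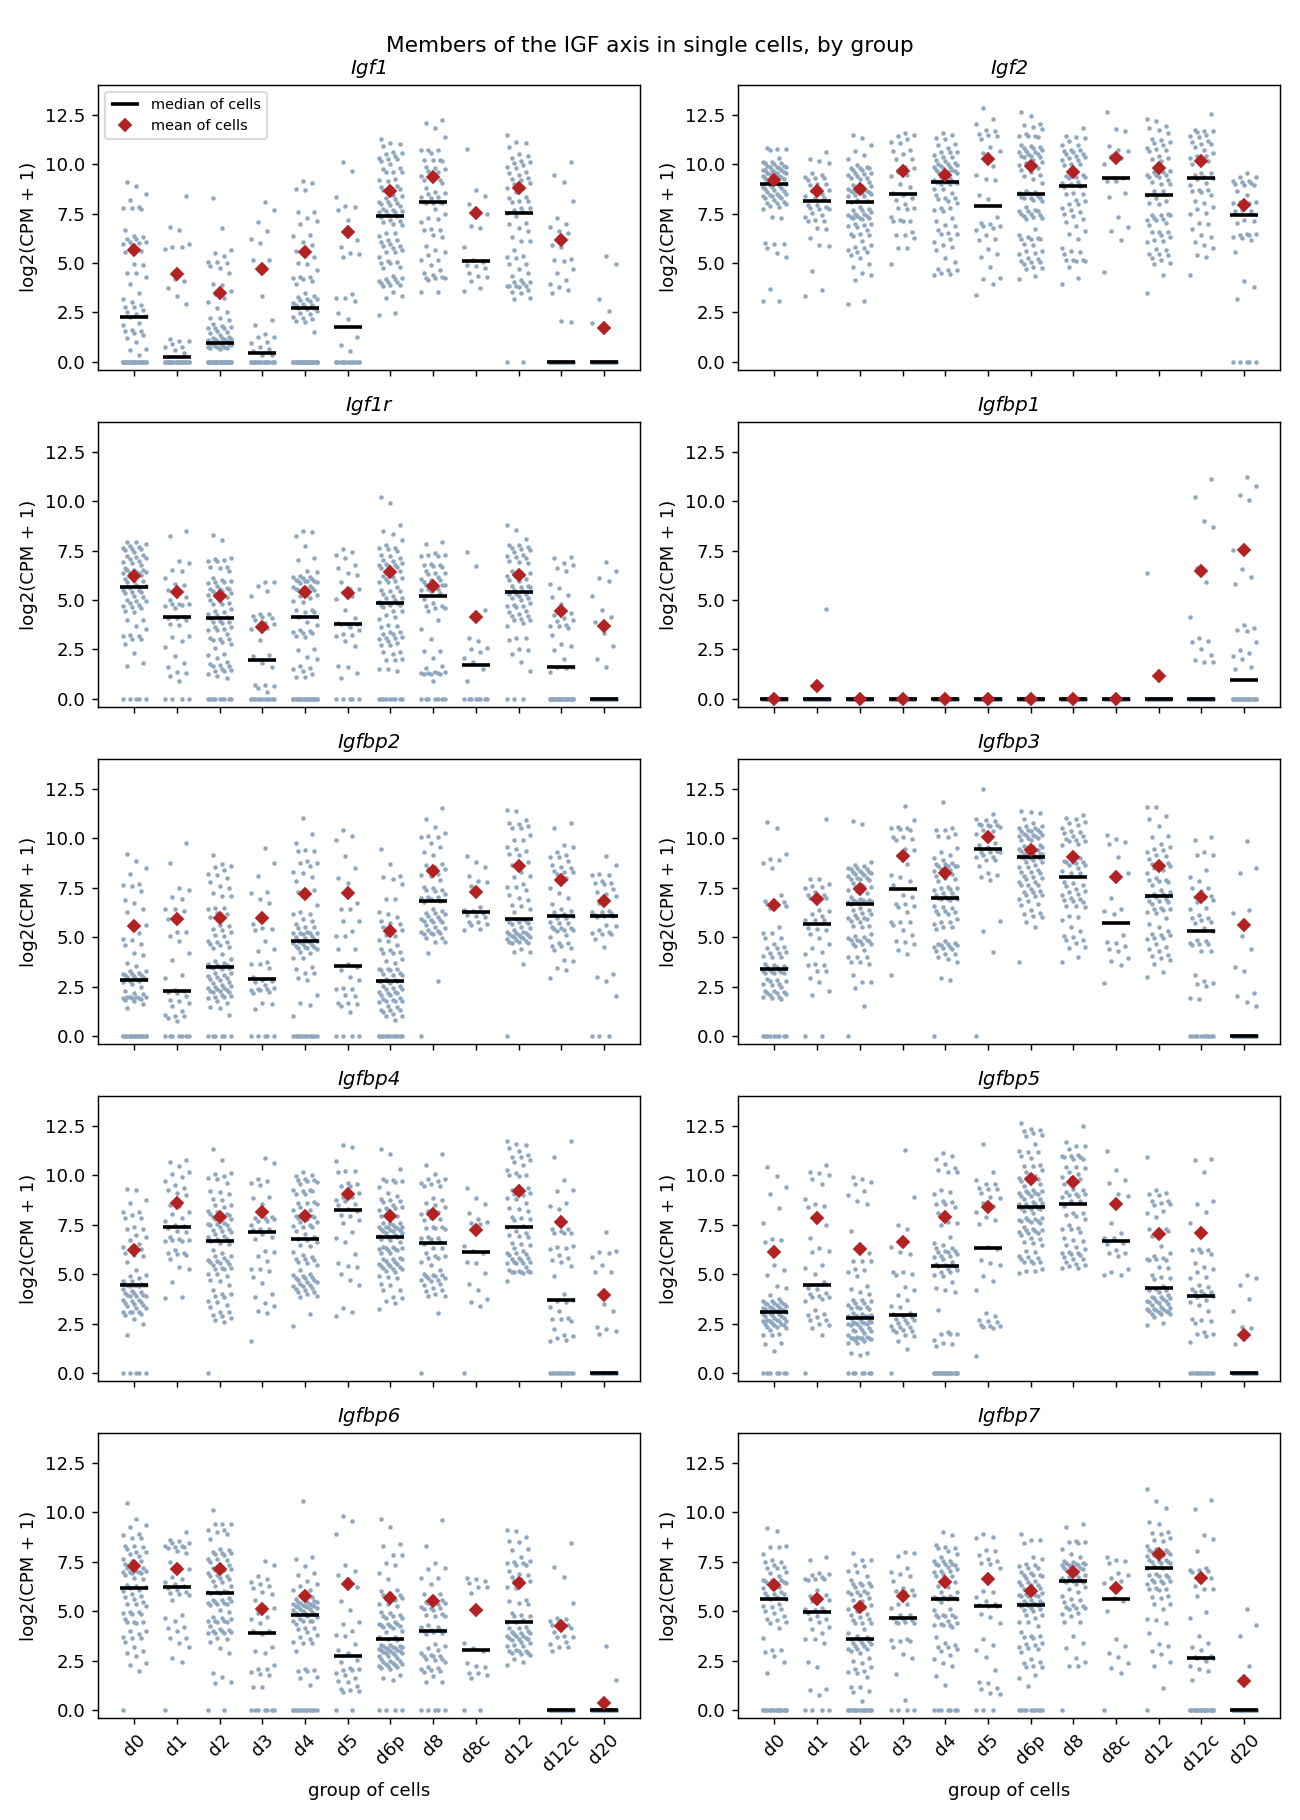
The 10 members in every kept cell, as log2(CPM + 1), over the 12 groups in order of day. Points are cells, black bars medians and red diamonds means. *Igf1* lies high from d6p to d12 and *Igfbp5* at d6p and d8, *Igfbp3* is highest at d5, *Igf2* stays high in nearly all cells, and *Igfbp1* leaves 0 in d12c and d20, with a single cell at d1 and another at d12.

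The first day in the reprogramming medium was compared with the start. *Igfbp4* rose by 2.35 and *Igfbp5* by 1.72 on the log2 scale, and *Igf1* fell by 1.21. These were 2 of 9 members higher and 1 lower, where 8.6% of all 7742 genes compared were called higher and 10.8% lower. *Igf2* (-0.58) and *Igf1r* (-0.78) were not called. The interquartile ranges of the cells overlapped for all 9 members, and were apart for 2.38% of all genes compared. The *Igf1* call was lost in 4 settings, where the difference was -0.79 in cells with at least 6000 genes, -0.82 with pooled CPM, -0.95 with a pseudocount of 10 and -0.54 per spike-in UMI.

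In d8 cells not picked from colonies, most of the axis was higher than at d0. *Igf1* rose by 3.67 on the log2 scale, *Igfbp5* by 3.55, *Igfbp2* by 2.76, *Igfbp3* by 2.42 and *Igfbp4* by 1.79, and *Igfbp6* fell by 1.74. So 5 of 9 members were higher and 1 lower, against a background of 17.6% higher and 14.3% lower. The median change of the members was 1.79 and that of all 8173 genes 0.02. Per spike-in UMI the *Igfbp4* difference was 0.47, short of a call, where the median gene was at -0.94. For 4 members, *Igf1*, *Igfbp2*, *Igfbp3* and *Igfbp5*, the interquartile ranges of the cells did not overlap, as for 6% of all genes compared. The summed fibroblast markers were 17307 CPM at d8 against 3919 at d0, and their part in these changes was not tested.

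The d12 cells not picked from colonies were also compared with d0, a start that the comparisons of d1, d8, d12 and d20 share. *Igf1* rose by 3.12, *Igfbp2* by 3.04, *Igfbp4* by 2.97, *Igfbp3* by 1.99 and *Igfbp7* by 1.57 on the log2 scale. That is 5 of 9 members higher and 0 lower, against a background of 18.9% and 19.1%. *Igfbp5*, at 0.92, was not called. The interquartile ranges did not overlap for *Igfbp2* and *Igfbp3*, and for 8.88% of all genes compared. Per spike-in UMI only 1 member was called higher and 3 lower, where 4.28% of all genes compared were higher and 84.6% lower. *Igfbp2* was then at 0.98, *Igfbp3* at 0.62, *Igfbp4* at 0.79 and *Igfbp7* at -0.83.

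The d20 cells, the XEN-like end point, had lower levels of nearly the whole axis than the fibroblasts at d0. The log2 difference was -6.91 for *Igfbp6*, -4.85 for *Igfbp7*, -4.16 for *Igfbp5*, -3.96 for *Igf1*, -2.54 for *Igf1r*, -2.30 for *Igfbp4*, -1.27 for *Igf2* and -1.01 for *Igfbp3*. *Igfbp2* rose by 1.27, and *Igfbp1* rose from 0. So 8 of 10 members were lower and 2 higher, against a background of 17.7% lower and 22.1% higher. The members' median was -2.42 and that of all 8419 genes 0.20. The interquartile ranges of cells were apart for 7 members, *Igf1r* and *Igfbp2* to *Igfbp7*, and for 8.01% of all genes compared. In cells with at least 6000 genes and with pooled CPM, the calls of *Igf2* (-0.60 and -0.81) and *Igfbp2* (0.74 and 0.85) were lost. The *Igfbp3* fall was just past the threshold, and in cells numbered up to 48 the difference was -0.23. With the d20 cell that had more fibroblast than XEN markers left out, the *Igfbp3* difference was -0.97, short of a call.

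Against the d12 cells, 9 of 10 members were lower at d20 and *Igfbp1* alone was higher, where 22.2% of 8726 genes were lower and 30.7% higher. The log2 difference was -7.07 for *Igf1*, -6.42 for *Igfbp7*, -6.07 for *Igfbp6*, -5.27 for *Igfbp4*, -5.08 for *Igfbp5*, -3.00 for *Igfbp3*, -2.60 for *Igf1r*, -1.86 for *Igf2* and -1.77 for *Igfbp2*. The median was -4.04, against 0.34 over all genes. *Igfbp1* rose by 6.36, and *Igfbp2* went the other way by medians (0.15). The interquartile ranges of the cells were apart for 7 of 10 members (*Igf1*, *Igf1r* and *Igfbp3* to *Igfbp7*) and for 17.4% of all genes compared. The single d20 cell with more fibroblast (920 CPM) than XEN markers (482 CPM) had the highest *Igfbp4* of its group, 140 CPM.

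The late-numbered d12c cells were set against the d12 cells of the same day. The log2 difference was -7.15 for *Igf1*, -6.42 for *Igfbp6*, -4.42 for *Igfbp4*, -2.36 for *Igfbp3*, -2.30 for *Igf1r* and -1.34 for *Igfbp7*, and *Igfbp1* rose by 6.10. *Igf2* (-0.09), *Igfbp2* (-0.52) and *Igfbp5* (-0.27) were not called. So 6 of 10 members were lower and 1 higher, against a background of 24.5% lower and 23.6% higher, with a members' median of -1.82 and 0.11 over all genes. The *Igfbp7* difference, with most UMIs in 2 cells, was -0.70 in cells of at least 6000 genes, -0.60 with pooled CPM and -7.20 by medians. The interquartile ranges were apart for 5 members, *Igf1*, *Igf1r*, *Igfbp4*, *Igfbp6* and *Igfbp7*, and for 17.4% of all genes. *Igf2*, *Igfbp2* and *Igfbp5* were called lower at d20 and not here, though by medians *Igfbp5* was at -2.28 here. Both comparisons share the d12 cells, and the difference between them was not tested. The fibroblast markers averaged 164 CPM in the late-numbered cells against 12807 at d12, and their part was not tested.

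**Figure D3:**
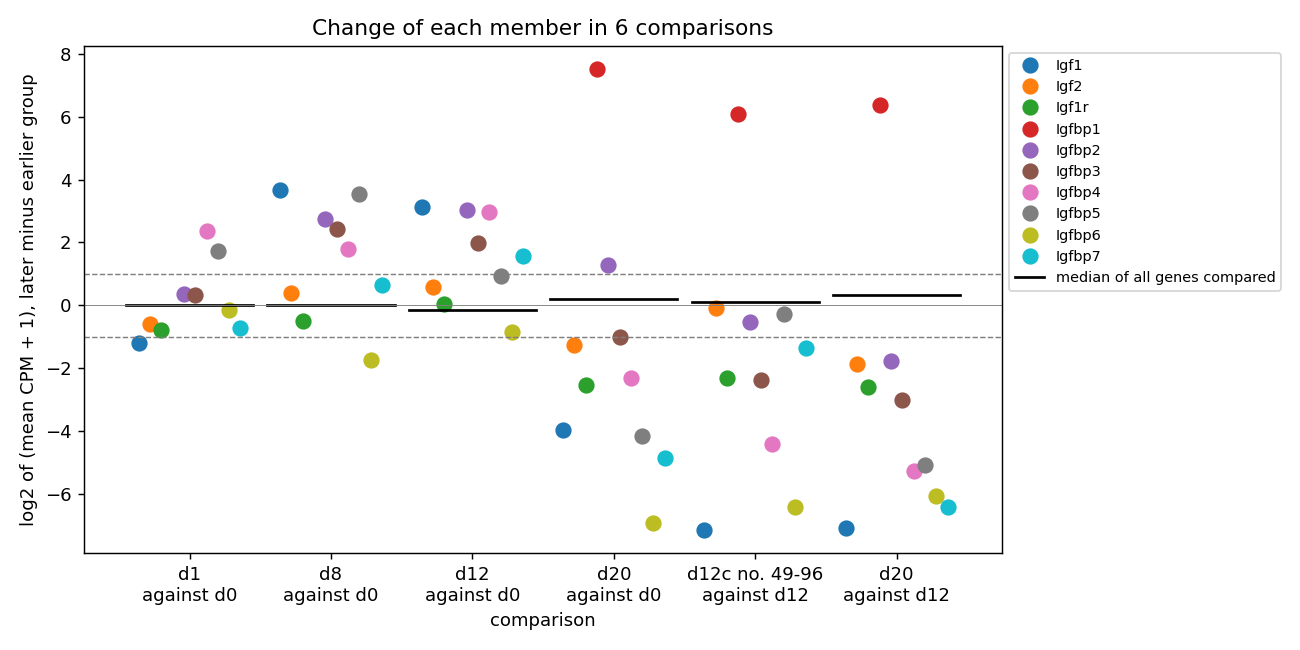
Difference of log2(mean CPM + 1), later minus earlier group, for each member (coloured points) in 6 comparisons, with the median of all genes compared (black bars) and the 2-fold thresholds (dashed). At d8 and d12 most members lie above the bar, and at d20 8 of 10 lie below -1 against d0 and 9 of 10 against d12. The *Igfbp1* point at d20 against d0 depends on the added 1 CPM, since d0 is at 0.

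The split of calls into higher and lower moved with the scaling. Of all calls between d20 and d12, 58.0% were higher with CPM, 43.5% with TMM factors, 44.7% with DESeq2 size factors and 21.3% with UMIs per spike-in UMI. Between d20 and d0 the shares were 55.6% with CPM, 44.1% with TMM and 1.55% per spike-in UMI. With spike-ins the share of higher calls was also 62.8% in place of 44.2% for d1, 12.5% in place of 55.2% for d8, 4.82% in place of 49.7% for d12 and 11.6% in place of 49.1% for the late-numbered d12c cells. Per spike-in UMI the median gene changed by 0.23 at d1, -0.94 at d8, -2.12 at d12 and -2.58 at d20 against d0, and by -0.94 (late-numbered d12c) and -0.61 (d20) against d12. On that scale *Igfbp2* at d20 (-1.75) and *Igfbp7* at d12 (-0.83) were lower than at d0. Relative to the median gene all 41 called changes of members kept their direction per spike-in UMI, and 38 stayed past 2-fold.

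**Figure D4:**
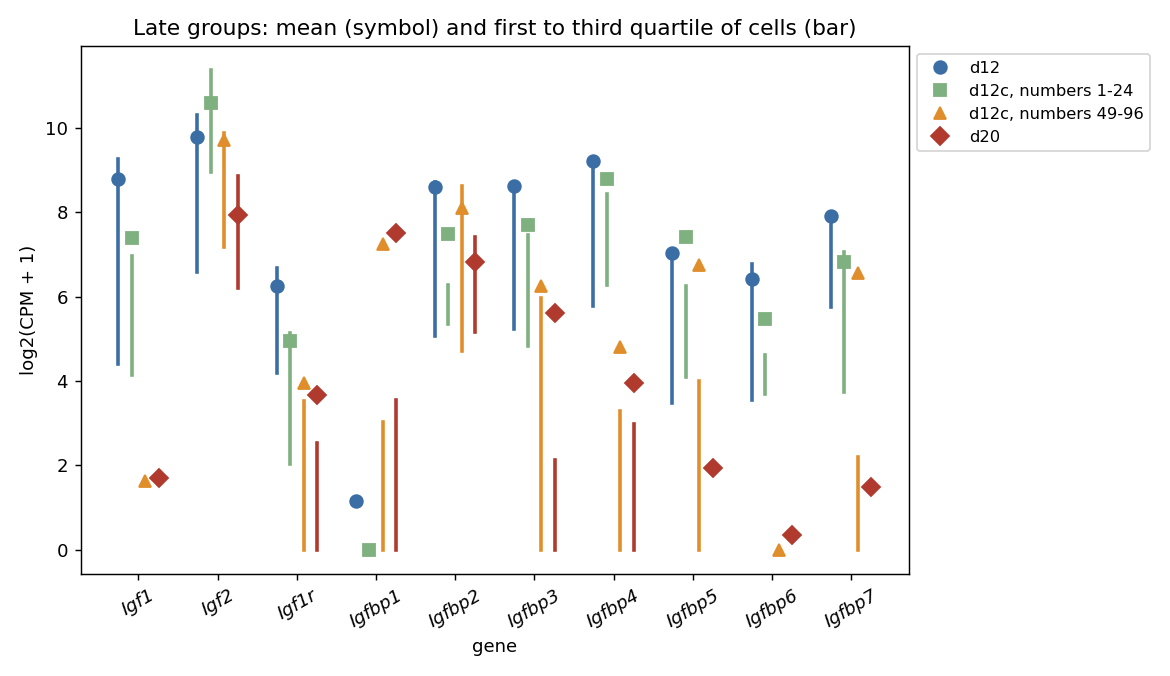
Members in the late groups, as log2(CPM + 1): the mean (symbol) and the interquartile range of cells (bar) at d12, in early- and late-numbered d12c cells and at d20. *Igf1*, *Igf1r*, *Igfbp2* and *Igfbp7* have means over 2-fold lower in early-numbered d12c cells than at d12, and late-numbered cells have 0 for *Igfbp6* and a high *Igfbp1* mean over a low bar.

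In the order of the 12 group means, neighbouring groups mostly overlapped. Of 110 pairs of neighbours, 106 had overlapping interquartile ranges. The pairs were chosen as nearest in mean, and pairs of groups without *Igfbp1* overlap by construction. The share over all genes was not computed for such pairs, so the count is a description. The 4 pairs that did not overlap were d0 and d20 for *Igfbp3*, *Igfbp4* and *Igfbp5*, and d2 and d20 for *Igfbp7*. The d20 group was lowest for *Igf1*, *Igf2* and *Igfbp3* to *Igfbp7*, and next to lowest, after d3, for *Igf1r*.

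Cells of a group also differed by running number, which may or may not stand for a library. At d4, *Igf1* averaged 81.9 CPM in cells numbered up to 48 and 5.87 in later cells, *Igfbp5* 448 and 13.5, and *Igfbp6* 80.8 and 24.2. *Igf1r* (58.6 and 23.9) and *Igfbp2* (209 and 70.2) also differed by at least 2-fold there. The share of all genes that differ as much between number ranges was not computed, so such differences may not be particular to the members. The median depth was 778217 and 322066 UMIs in the same ranges, and its part was not tested. At d2, *Igfbp4* was 344 and 118, *Igfbp2* 85.3 and 33.0 and *Igfbp7* 51.9 and 16.5 CPM, and at d0 *Igfbp3* was 52.8 and 165. At d6p, d8 and d12 no member but the sparse *Igfbp1* differed by 2-fold between the ranges. At d20, *Igfbp1* averaged 102 CPM in cells numbered up to 48 and 482 in the 8 cells after them, *Igf1r* 8.22 and 24.7, and *Igf1* 1.35 and 5.66.

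**Figure D5:**
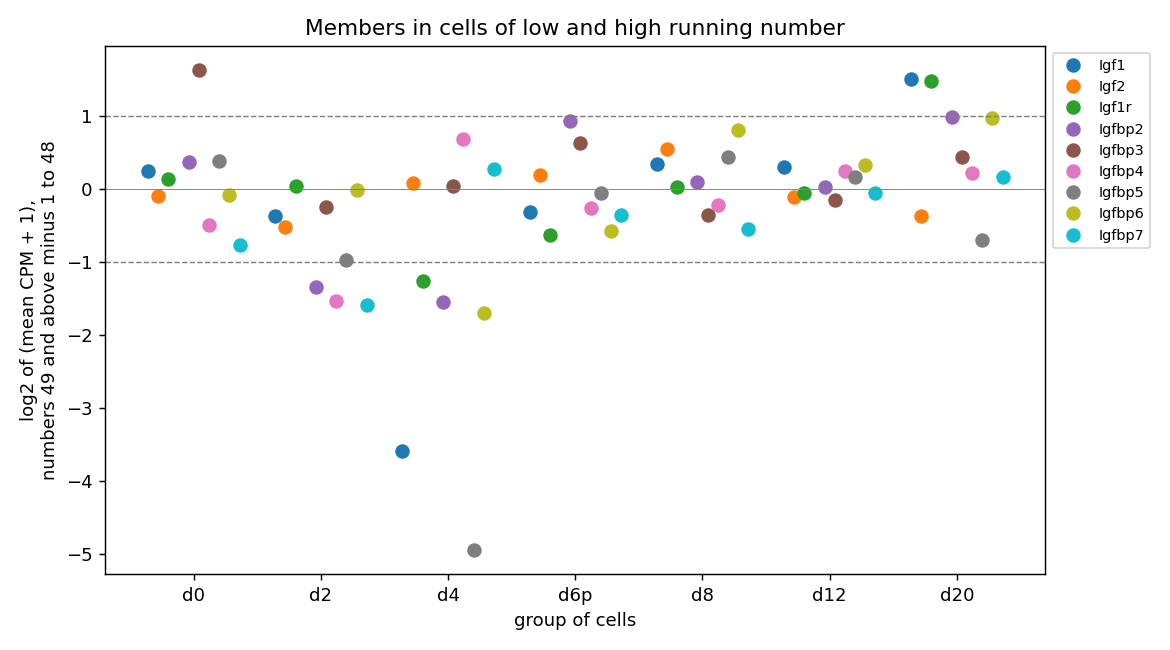
Difference of log2(mean CPM + 1) between cells numbered 49 and above and cells numbered up to 48, for 9 members in 7 groups, with 2-fold thresholds dashed (*Igfbp1* is left out). Points at d6p, d8 and d12 lie within the thresholds, while at d4 *Igfbp5* and *Igf1* lie at -4.95 and -3.59.

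Over the 51 d12c cells, mesenchymal members went with the fibroblast markers. Spearman's rho with the summed fibroblast markers was 0.858 for *Igfbp7*, 0.699 for *Igfbp4* and 0.553 for both *Igfbp3* and *Igfbp5*. With the summed XEN markers it was -0.724, -0.616, -0.551 and -0.565 in the same order of *Igfbp7*, *Igfbp4*, *Igfbp3* and *Igfbp5*. *Igfbp2* (-0.159 and 0.160) was near 0 with both. These cells share depth and the 2 number ranges, so rho describes the group and its cells are not independent. Over the 67 d12 cells rho of *Igfbp7* with the fibroblast markers was 0.111.

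A list of 51 other genes of the pathway shows the axis beyond the binding proteins. Of 35 compared between d20 and d12, 7 were higher and 14 lower (median -0.64), where 30.7% of all genes were higher and 22.2% lower. Of 34 between d12 and d0, 6 were higher and 4 lower (median 0.14), against 18.9% and 19.1% of all genes. Against d0, 3 of 33 were higher and 8 lower at d1 (all genes 8.6% and 10.8%), 8 of 34 higher and 7 lower at d8 (17.6% and 14.3%), and 7 of 37 higher and 11 lower at d20 (22.1% and 17.7%). In late-numbered d12c cells 4 of 34 were higher and 13 lower than at d12 (23.6% and 24.5%).

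The proteases that cut binding proteins, and the stanniocalcins that block such cleavage, were lower at the end. All 5 compared were lower at d20 than at d12, where 22.2% of all genes were, and all 5 in late-numbered d12c cells, where 24.5% were. *Pappa*, which encodes the IGFBP4 protease, was 39.0 CPM at d0, 66.8 at d12 and 1.49 at d20. *Htra1*, a secreted serine protease, was 46.1, 1795 and 27.6 CPM, and *Adam12*, a metalloprotease, was 18.1, 24.8 and 0.198 CPM, the last from 2 UMIs. *Stc1*, an inhibitor of PAPP-A, was 9.42 CPM at d0 and 3310 at d12, with a UMI in all 67 cells. At d20 it was 30.8 CPM, with a UMI in 3 of 38 cells. *Stc2*, its relative, was 4.01, 15.8 and 0 CPM. From d0 to d12 *Htra1*, *Stc1* and *Stc2* rose.

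Among other receptors, *Insr*, the insulin receptor, rose from 4.16 CPM at d12 to 19.5 at d20, where 10 of 38 cells had a UMI. *Igf2r*, which removes IGF2 from the cell surface, was 110 CPM at d0, 78.4 at d12 and 64.4 at d20 and was not called. The insulin genes *Ins1* and *Ins2* had no UMI in any group, and the binders *Igfals* and *Igfbpl1* stayed under 0.5 CPM.

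Adaptors and kinases moved in both directions. *Grb10*, an imprinted inhibitor of both receptors, fell from 217 CPM at d0 to 81.0 at d12 and rose to 355 at d20. *Irs1*, the docking protein of the receptor, fell from 27.1 CPM at d12 to 1.72 at d20, and *Shc1*, a second adaptor, from 56.0 to 23.2. *Irs2* rose from 14.6 CPM at d0 to 33.2 at d12 and was 16.5 at d20, which is just short of 2-fold below. Of the PI3K subunits, *Pik3cb* rose from 0.393 CPM at d12 to 25.7 at d20, *Pik3ca* fell from 24.6 to 7.53, and *Pik3r1* rose from 13.5 at d0 to 42.5 at d12. *Akt2*, a kinase after PI3K, fell from 52.3 to 19.2 CPM from d12 to d20, and *Foxo4*, a forkhead factor that AKT inhibits, rose from 1.13 to 21.0. The translation repressor *Eif4ebp1* (432 CPM at d12 and 435 at d20), the mTOR activator *Rheb* (391 and 219) and the S6 kinase *Rps6kb1* (65.3 and 70.9) were not called.

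The regulators of *Igf2* were also split. The mRNA-binding protein genes *Igf2bp1* and *Igf2bp3* rose from 48.1 to 153 CPM and from 14.2 to 62.1 CPM between d12 and d20. *Igf2bp3* had fallen from 102 CPM at d0. *H19* is the imprinted non-coding gene that lies 72.62 kb from *Igf2* and shares its enhancers. Its mean was 533 CPM at d0, 926 at d12 and 596 at d20, and it was called in neither comparison. By medians it went the other way, by -1.15 on the log2 scale at d12 against d0 and by 1.29 at d20 against d12. *Plag1*, an activator of *Igf2*, rose from 1.04 to 13.2 CPM from d12 to d20. Its relative *Plagl1* rose from 28.0 at d0 to 63.3 at d12 and fell to 28.8 at d20, and *Hmga2*, a chromatin protein of growing embryonic tissue, fell from 315 to 143 CPM between d12 and d20.

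The CCN family, matrix proteins once counted as IGFBP-related, had lower members at d1 and at d20. All 5 compared were lower at d1 than at d0, where 10.8% of all genes were, and all 3 compared at d20 were lower than at d12, where 22.2% were. Between d12 and d20 *Cyr61* fell from 2008 to 102 CPM, *Wisp1* from 127 to 0 and *Wisp2* from 28.1 to 0. *Ctgf* had already fallen from 263 CPM at d0 to 5.50 at d12, and *Nov* from 66.0 to 3.28.

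For each member the 3 genes with the most similar course were found by Pearson's r of log2(mean CPM + 1) over the 12 groups, among 10382 genes with at least 10 CPM in any group. The 12 means share cells and depth across genes, so r is a description. *Igf1* was most like *Abca1* (0.969), *Tacc1* (0.962) and *Pde8b* (0.959), and *Igf2* like *Cxx1a* (0.927), *Cxx1b* (0.921) and *Adcy1* (0.902). *Igf1r* had weaker partners in *Pip5k1a* (0.873), *Pkd2* (0.864) and *Trappc10* (0.858), as had *Igfbp2* in *Dhcr7* (0.859), *Rabac1* (0.855) and *Cirbp* (0.842). *Igfbp1*, with 0 in 8 of 12 groups, was most like *Ucn* (0.997), *Tdh* (0.996) and *Grb7* (0.995). *Igfbp3* was most like *Pfn2* (0.962), the collagen gene *Col6a1* (0.955) and *Clip3* (0.951), and *Igfbp4* like *AI837181* (0.954), *Cbr3* (0.948) and *Crabp1* (0.948). *Igfbp5* was like *Gpr153* (0.944) and *Psd3* (0.940). *Igfbp6* went with *Tpm4* (0.970), *Anxa2* (0.966) and *Cavin3* (0.956), and *Igfbp7* with the matrix gene *Tnc* (0.973), *Sox4* (0.967) and *Lhfp* (0.949).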

How the data were processed

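Single-cell RNA sequencing of hand-picked cells was used. Per the labels, the authors split reads by cell barcode, trimmed and aligned them against mm9 transcripts and collapsed copies that share a UMI. The deposited values are whole-number UMI counts per gene and cell, read here without scaling. The aligner is not given in the sources used here. The table held 23197 genes, 92 ERCC spike-in rows (5.43% of counts) and 808 cells, and 4 rows whose names recur were left out. No 2 cells were identical, and no doublet caller was run.

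The members, gene lists and comparisons were chosen with earlier results of these data known. Groups are the leading part of the cell name. Because cell names do not show the sequenced batch, each group is 1 sample and no test was run. The 670 cells in which 4000 or more genes were detected were used. CPM was computed without spike-ins. Differences are log2(mean CPM + 1), later minus earlier group, called at 2-fold among genes with a mean of at least 10 CPM in either group. Sums of UMIs have exact Poisson and shares of cells Clopper-Pearson intervals at 95%. Depths of 17633 to 6004864 UMIs per cell set the precision. Shares were also computed at 50000 UMIs per cell, which left out 23 cells and made 1 UMI worth 20 CPM.

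Named genes were all 10 members, pathway genes called in d20 against d12 or d12 against d0 or reaching 100 CPM in any group, and the 3 genes most alike to each member. For *Igfbp5*, 1 of these 3 is not reported here. Alternatives covered the cell filter, average, pseudocount, threshold, scaling (edgeR 4.0.16 TMM and DESeq2 1.42.0 factors of summed UMIs, or UMIs per spike-in UMI), the 50 most abundant genes, depth, filter on low values and running number. Leaving out 3 cells with muscle markers, or the d20 cell with more fibroblast than XEN markers, was added after seeing the data. The fold computation was tested on simulated data. Promoters, 250 bases before RefSeq starts, were searched for 6 motifs on both strands. Python 3.11.15, numpy 2.4.6, pandas 2.3.3, scipy 1.17.1, matplotlib 3.10.9 and R 4.3.3 were used.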

Additional observations from a re-analysis of the deposited data

How the results depend on the processing

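The members made 41 calls in the 6 comparisons. What is counted next is differences past 2-fold, whether or not 10 CPM was reached in that setting. Leaving out the filter on low values cannot change these differences, so that setting is not counted. All 41 stayed past 2-fold in the same direction with all deposited cells, at least 2000 detected genes, mean log2 values and a pseudocount of 0.1. The same held without each gene's highest cell, with TMM or DESeq2 factors and with thinned cells. It also held with a library size without the 50 most abundant genes, and without the muscle-marker cells. The number that stayed was 37 with at least 6000 detected genes, 37 with pooled CPM, 38 with median CPM and 39 with a pseudocount of 10. It was 40 without the d20 cell of more fibroblast markers, and 34 per spike-in UMI. Of the calls that could be computed, 33 of 34 held in cells numbered up to 48 and 38 of 38 in later-numbered cells. By median CPM the d20 against d0 count of members called was 6 in place of 10. In that setting 23.3% of all genes compared were higher and 25.5% lower. *Igfbp2* at d20 against d12 was 0.15 by median CPM in place of -1.77. By mean log2 values the d1 against d0 count was 5 in place of 3, where 22.2% of all genes were higher and 5.50% lower. At 4-fold it was 1, where 2.36% of all genes were higher and 3.55% lower. For d12 against d0 the 4-fold count was 3 in place of 5, where 9.56% of all genes were higher and 5.03% lower. Per spike-in UMI, *Igfbp7* at d12 against d0 was -0.83 in place of 1.57 and *Igfbp2* at d20 against d0 was -1.75 in place of 1.27. *Igfbp1* at d20 was 0.94 by medians, since the median cell had few UMIs. The cause of the other changes was not tested. No paired analysis was possible because the cells carry no replicate number. Depth limits the shares of cells with a UMI and the quartiles of cells, above all at d20, where cells were shallowest.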

Other observations

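Single cells in which several members stood apart were found in the late groups. A late-numbered d12c cell had the highest *Igfbp2* (1458 CPM) and the highest *Igfbp4* (580 CPM) of its 30 cells together with 506 CPM of *Igfbp1*, and its XEN markers summed to 878 CPM. Another had 1798 CPM of *Igfbp5* with 569 CPM of *Igfbp3* and 60.0 CPM of *Igf1*, the highest *Igf1* of the 30, and its fibroblast and XEN markers summed to 477 and 616 CPM. A further cell, with 1129 CPM of *Igfbp5*, had the highest *Igf2* of the 30 at 5954 CPM and XEN markers at 2014 CPM, from 45180 UMIs in all.

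The 3 cells with skeletal muscle markers, at 23560 CPM (d0), 11581 (d2) and 55821 (d12c), differed in *Igfbp5*. It was 8.04 CPM in the d0 cell, 591 in the d2 cell and 414 in the d12c cell, while their *Igf2* was 716, 678 and 1372 CPM.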
